A study of Mus musculus with 18 samples.

Results

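Monocyte marker genes were followed in sorted synovial macrophages of the mouse, before and after circulating immune complexes (IC). The 9 members were *Ccr2*, *Ly6c2*, *Ly6i*, *Plac8*, *F13a1*, *Lyz2*, *Fcnb*, *Hp* and *Gsr*, chosen by symbol as genes of blood monocytes and of macrophages that have just entered a tissue, and they were 9 of the 24421 symbols listed. RNA of 3 subsets of synovial macrophages, LYVE1+CX3CR1+, MHCII+CD11c- and MHCII+CD11c+, was sequenced in bulk, so that reads were counted per gene over a whole sorted population. The mice were adult C57BL/6 animals (C57BL/6J background) of both sexes. They were either left untreated (labelled healthy or control) or given IC, which were complexes of ovalbumin with a rabbit polyclonal antiserum against it, into a tail vein, and synovium was taken 8 h later and digested with collagenase. Each of the 6 groups had 3 libraries, 18 in all, and each library pooled the sorted cells of 3 mice. The LYVE1+CX3CR1+ gate also required cells to be negative for MHCII and Ly6C, whereas the other gates were set on MHCII and CD11c. Nothing in the labels says which libraries came from the same mice, so p-values measure only the spread between these libraries.

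Classical monocytes leave the bone marrow and enter inflamed tissue through CCR2, the receptor for the chemokines CCL2, CCL7 and CCL12. In blood they carry much Ly6C on their surface, and as they turn into macrophages in tissue they lose Ly6C and many other monocyte transcripts over days. Several of these genes are not made by monocytes alone. *Hp*, *Plac8*, *Fcnb* and *Gsr* are also transcribed along the neutrophil lineage, and *Lyz2* and *F13a1* are abundant in many mature tissue macrophages.

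The proteins encoded by the members fall into 3 kinds. CCR2 is a chemokine receptor, and LY6C2 and LY6I are small surface proteins anchored in the membrane by a lipid. F13A1 (the A subunit of coagulation factor XIII), LYZ2 (lysozyme M, which cleaves bacterial cell walls), FCNB (ficolin B, a lectin that starts complement) and HP (haptoglobin, which binds free hemoglobin) are secreted or stored in granules. PLAC8 is a small cysteine-rich protein of myeloid cells, and GSR (glutathione reductase) regenerates reduced glutathione with NADPH. In GRCm38, *Ccr2* lies on chromosome 9 (124101950 to 124113557), *Plac8* on chromosome 5 (100553725 to 100572245), *F13a1* on chromosome 13 (36867178 to 37050244), *Lyz2* on chromosome 10 (117277331 to 117282321) and *Fcnb* on chromosome 2 (28076378 to 28084885). *Ly6c2* (75108158 to 75111970) and *Ly6i* (74979534 to 74983430) lie in the Ly6 gene cluster of chromosome 15, and *Hp* (109575128 to 109579172) and *Gsr* (33652523 to 33698163) lie on chromosome 8.

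Some of these counts can be shared with other genes. Of the 100-base windows of annotated *Ly6c2* transcripts, 14.9% were identical to *Ly6c1*, against 1.97% of *Lyz2* with *Lyz1*. *F13a1* overlaps 2 genes on the opposite strand, and *Gsr* holds a small nucleolar RNA gene. How the counting treated strand and reads with several matches is not given in the sources used here.

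The sequence before the start site is shown for *Ly6c2* and *Plac8*, a pair whose IC libraries lay above the untreated ones in both MHCII+ subsets, as described later. Both were taken from RefSeq for GRCm38 and are written 5′ to 3′ on the minus strand, without bases inside the annotated gene, with capitals marking the letters of a searched motif. RefSeq promoters were at hand for 6 of the 9 members, and the bases shown precede the outermost start of *Ly6c2* (chr15:75111972-75112221) and of *Plac8* (chr5:100572246-100572455).
Ly6c2: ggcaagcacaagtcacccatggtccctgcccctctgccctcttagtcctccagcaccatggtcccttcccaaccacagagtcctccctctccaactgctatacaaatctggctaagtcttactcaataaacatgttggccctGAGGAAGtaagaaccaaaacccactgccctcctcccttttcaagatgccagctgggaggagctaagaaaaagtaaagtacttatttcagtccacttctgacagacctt
Plac8: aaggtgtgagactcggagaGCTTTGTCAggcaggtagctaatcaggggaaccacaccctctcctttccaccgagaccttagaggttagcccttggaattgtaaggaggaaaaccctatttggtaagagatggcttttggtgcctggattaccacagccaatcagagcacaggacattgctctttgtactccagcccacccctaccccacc

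The 6 motifs were searched on both strands in the 250 bases before each start, and none was set to overlap another. They were GAAANNGAA (the interferon response core, in 7.13% of all 32851 promoters of that length), TTCNNNGAA (a STAT site, 7.02%), TTNNGNAAT (a C/EBP site, 10.2%), GAGGAAG (a core bound by PU.1, the myeloid transcription factor, 10.6%), TGACNNNGC (the antioxidant response core, 10.2%) and GGGANTTNC (a kappaB core, 3.54%). *Ly6c2* held the PU.1 letters from -108 to -102 before its outermost start, and *Plac8* held the antioxidant letters from -231 to -223. *F13a1* held the PU.1 letters from -66 to -60, and *Ccr2* held interferon letters from -86 to -78 and C/EBP letters from -244 to -236. *Lyz2* and *Fcnb* held none of the 6, and the matches are letters only, not sites shown to be bound.

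Library totals ranged from 245903 to 2172358 counts, with a median of 1526179, and the smallest were MHCII+CD11c- IC replicates 2 (245903) and 1 (381217). In untreated mice, the transcripts of the sorted proteins followed the gates. *Lyve1* ran from 2162 to 2551 CPM (counts scaled to library size with edgeR's TMM factors) in untreated LYVE1+CX3CR1+ libraries and from 327 to 877 in untreated MHCII+ ones, *H2-Ab1* (a class II gene) from 20.0 to 20.4 against at least 4526, and *Itgax* (CD11c) from 239 to 302 in untreated MHCII+CD11c+ libraries against at most 13.2 in the other untreated libraries. After IC the MHCII+CD11c- libraries shifted, with *Itgax* at 30.9 to 70.3 CPM (2.31 to 13.2 untreated), *Lyve1* at 514 to 2280.3 (699 to 877) and *H2-Ab1* at 2661 to 3073 (4526 to 4724). The other subsets shifted as well. *Lyve1* was at 996 to 1226 CPM (327 to 437 untreated) in MHCII+CD11c+ and at 3156 to 3537 (2162 to 2551) in LYVE1+CX3CR1+ libraries. *H2-Ab1* was at 21.9 to 44.1 (20.0 to 20.4) in LYVE1+CX3CR1+ libraries. MHCII+CD11c- IC replicate 2 also stood apart in composition from replicates 1 and 3, with 8909 CPM summed over 10 macrophage identity genes against 16070.1 and 15022, 4837 over 8 resident macrophage markers against 8542 and 8448, 199 over 7 fibroblast markers against 52.0 and 66.8, and 345 over the B cell markers against 232 and 216. The part of these shifts in the IC comparisons was not tested. T and NK cell markers had 0 counts in most libraries, at most 4.63 CPM summed over 4 genes, whereas 4 B cell markers summed to 62.1 to 345 CPM in the MHCII+ libraries and to at most 2.10 in LYVE1+CX3CR1+ ones. Summed over 14 genes, neutrophil markers reached 18.8 to 24.6 CPM in untreated LYVE1+CX3CR1+, 977 to 2280.2 in untreated MHCII+CD11c- and 130.2 to 862 in untreated MHCII+CD11c+ libraries.

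The members stood at very different levels. Per kilobase of exon, *Lyz2* (4732 to 5182 CPM per kb as group means of the untreated subsets) and *F13a1* (259 to 423) were the highest in every subset. *Ccr2* followed in the MHCII+ subsets at 83.4 and 114 CPM per kb, against 4.09 in LYVE1+CX3CR1+ macrophages. The levels of *Plac8*, *Hp*, *Gsr*, *Ly6c2*, *Ly6i* and *Fcnb* were at most 19.4 CPM per kb in each untreated group.

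**Figure D1:**
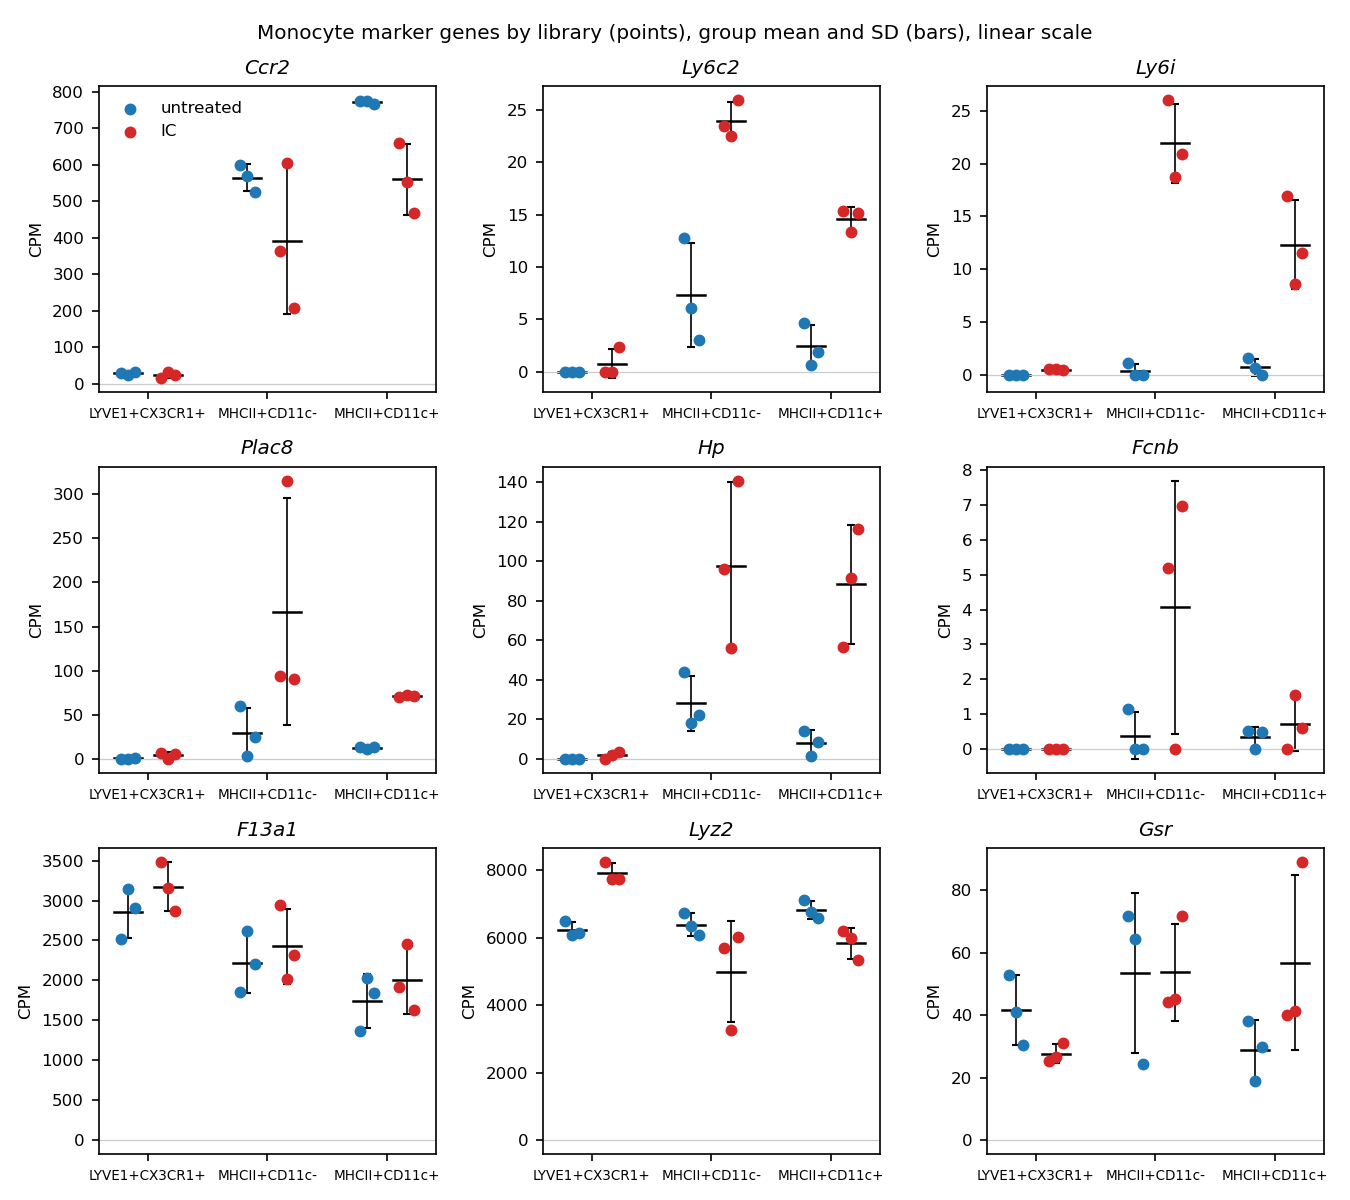
CPM of the 9 monocyte marker genes (linear axes that include 0) in the 18 libraries, as points in order of replicate number, with the group mean (line) and SD (bar) for untreated (blue) and IC (red) libraries of each subset. *Ccr2* lay between 206 and 775 CPM in MHCII+ libraries and between 15.2 and 32.5 in LYVE1+CX3CR1+ ones, and the IC libraries of *Ly6c2*, *Ly6i*, *Plac8* and *Hp* lay above the untreated ones in both MHCII+ subsets.

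The first comparison set the untreated subsets against each other. The monocyte genes were low in LYVE1+CX3CR1+ macrophages, where 4 of the 8 members tested, *Ccr2*, *Ly6c2*, *Plac8* and *Hp*, were lower than in each MHCII+ subset. *Lyz2* and *F13a1*, by contrast, were abundant in all 3 subsets. A gene was called when its Benjamini-Hochberg adjusted p was under 0.05 over the 10550 genes tested by edgeR's quasi-likelihood method, which applies throughout. *Fcnb* did not pass the filter on low counts and was not tested. Of all genes tested, 11.5% were called between LYVE1+CX3CR1+ and MHCII+CD11c- macrophages, 7.12% as lower in LYVE1+CX3CR1+, and 21.8% against MHCII+CD11c+ macrophages, 12.4% as lower.

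*Ccr2* separated the subsets. In untreated mice it was at 28.9, 23.1 and 31.1 CPM in the LYVE1+CX3CR1+ libraries, at 598, 568 and 525 in the MHCII+CD11c- libraries and at 775, 774 and 766 in the MHCII+CD11c+ libraries. No library of one subset overlapped with another. The log2 fold change of LYVE1+CX3CR1+ macrophages was -4.34 (SE 0.29, adjusted p = 5.33e-11) against MHCII+CD11c- and -4.79 (SE 0.29, adjusted p = 3.65e-12) against MHCII+CD11c+ macrophages, and both calls held whichever library was left out. Between the MHCII+ subsets, the difference of 0.45 toward MHCII+CD11c+ (95% interval -0.04 to 0.95, adjusted p = 0.366) did not pass the test.

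*Hp*, *Plac8* and *Ly6c2* were at or near 0 in untreated LYVE1+CX3CR1+ macrophages. A gene was taken as at the floor in a group whose libraries each held no more than 3 counts, and folds against that group are given as lower bounds, computed with 3 counts in each library. *Hp* had 0 counts in the 3 untreated LYVE1+CX3CR1+ libraries, against 44.0, 18.2 and 22.4 CPM in MHCII+CD11c- and 14.1, 1.31 and 8.64 CPM in MHCII+CD11c+ libraries. It was at least 15.4-fold lower than in MHCII+CD11c- (adjusted p = 2.34e-05) and at least 4.38-fold lower than in MHCII+CD11c+ macrophages (adjusted p = 7.33e-04).

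*Plac8* had 0, 0 and 2 counts in untreated LYVE1+CX3CR1+ libraries and stood at 60.2, 3.65 and 24.4 CPM in MHCII+CD11c- and 13.1, 11.1 and 13.9 CPM in MHCII+CD11c+ libraries. The spread in MHCII+CD11c- macrophages was wide and that in MHCII+CD11c+ narrow. *Plac8* was at least 16.1-fold lower in LYVE1+CX3CR1+ than in MHCII+CD11c- (adjusted p = 2.79e-04) and at least 6.94-fold lower than in MHCII+CD11c+ macrophages (adjusted p = 0.00212).

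*Ly6c2* had 0 counts in the 3 untreated LYVE1+CX3CR1+ libraries, whose gate took Ly6C-negative cells, so that its absence there in part repeats the gate. It was at 12.7, 6.08 and 3.05 CPM in MHCII+CD11c- libraries, at least 3.98-fold above LYVE1+CX3CR1+ (adjusted p = 0.00398), and at 4.71, 0.654 and 1.92 CPM in MHCII+CD11c+ libraries, at least 1.33-fold above (adjusted p = 0.0221). The second of these calls was lost in 4 of 6 fits that left out 1 library, namely MHCII+CD11c+ replicate 1 (adjusted p = 0.109) or LYVE1+CX3CR1+ replicate 1 (0.0596), 2 (0.0623) or 3 (0.0722). These levels rest on 11 counts or fewer in each untreated library. *Ly6i* had 3 counts or fewer in each of the 9 untreated libraries, and no fold is given.

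The secreted proteins of mature macrophages ran at high levels in all subsets. *F13a1* was at 2513, 3142 and 2906 CPM in untreated LYVE1+CX3CR1+, 1851, 2615 and 2202 in MHCII+CD11c- and 1364, 2026 and 1838 in MHCII+CD11c+ libraries. It was higher in LYVE1+CX3CR1+ than in MHCII+CD11c+ macrophages by 0.71 on the log2 scale (SE 0.18, adjusted p = 0.00489), the opposite direction to *Ccr2*, and the libraries did not overlap. Against MHCII+CD11c- macrophages the difference was 0.36 (95% interval -0.01 to 0.74, adjusted p = 0.239) and the libraries overlapped.

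*Lyz2* was at 6486, 6073 and 6125 CPM in untreated LYVE1+CX3CR1+, 6744, 6332 and 6069 in MHCII+CD11c- and 7124, 6758 and 6575 in MHCII+CD11c+ libraries. LYVE1+CX3CR1+ macrophages differed by -0.04 (95% interval -0.37 to 0.30) and -0.13 (-0.47 to 0.20) on the log2 scale, with adjusted p = 0.933 and 0.661. *Gsr* was at 53.0, 41.2 and 30.5 CPM in LYVE1+CX3CR1+, 71.8, 64.4 and 24.4 in MHCII+CD11c- and 38.2, 19.0 and 29.7 in MHCII+CD11c+ libraries, which overlapped between every pair of subsets.

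Between the MHCII+ subsets, 0 of 8 members were called (3.49% of all genes tested were), with 2 at an unadjusted p under 0.05 (*Hp* and *Gsr*) and 1 by DESeq2's Wald test (*Hp*). For *Hp*, the difference of MHCII+CD11c+ from MHCII+CD11c- macrophages was -1.75 on the log2 scale (SE 0.54, adjusted p = 0.0766), and the libraries did not overlap. Without MHCII+CD11c+ replicate 1, the difference was -2.39 (adjusted p = 0.0431).

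The second comparison asked whether monocyte genes were higher 8 h after IC, as a test of monocyte entry. The test is limited by the sort, since monocytes outside the gates were not sequenced. The LYVE1+CX3CR1+ gate left out Ly6C-positive cells, so entry of such cells could not be seen in that subset. The mRNAs of *Ly6i* and *Plac8* were called higher after IC in both MHCII+ subsets. Each of these calls was lost in some or all fits that left out 1 library. *Hp* was called only in MHCII+CD11c+ macrophages. *Ccr2* was not called in the reported fit, and its fitted values pointed down. It already stood at 525 to 775 CPM in the untreated MHCII+ libraries. What a few entering monocytes would add to that level was not tested. In MHCII+CD11c- macrophages, 2 of 8 members were higher (*Ly6i* and *Plac8*) and 0 lower, where 1.06% of all genes tested were called and 0.55% as higher. In MHCII+CD11c+ macrophages, 3 of 8 were higher (*Ly6i*, *Plac8* and *Hp*) and 0 lower, where 0.673% of all genes were called and 0.483% as higher. The median log2 fold change over the 8 members was 0.93 and 1.74, beside -0.01 in both subsets over all genes tested, and stayed the same with *Ly6i* set at its lower bound. In LYVE1+CX3CR1+ macrophages, 0 of 8 were called, where 0.464% of all genes were, with 3 at an unadjusted p under 0.05 (*Lyz2*, *Plac8* and *Hp*) and 0 by DESeq2. In bulk RNA, more cells of a type and more RNA per cell cannot be told apart.

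**Figure D2:**
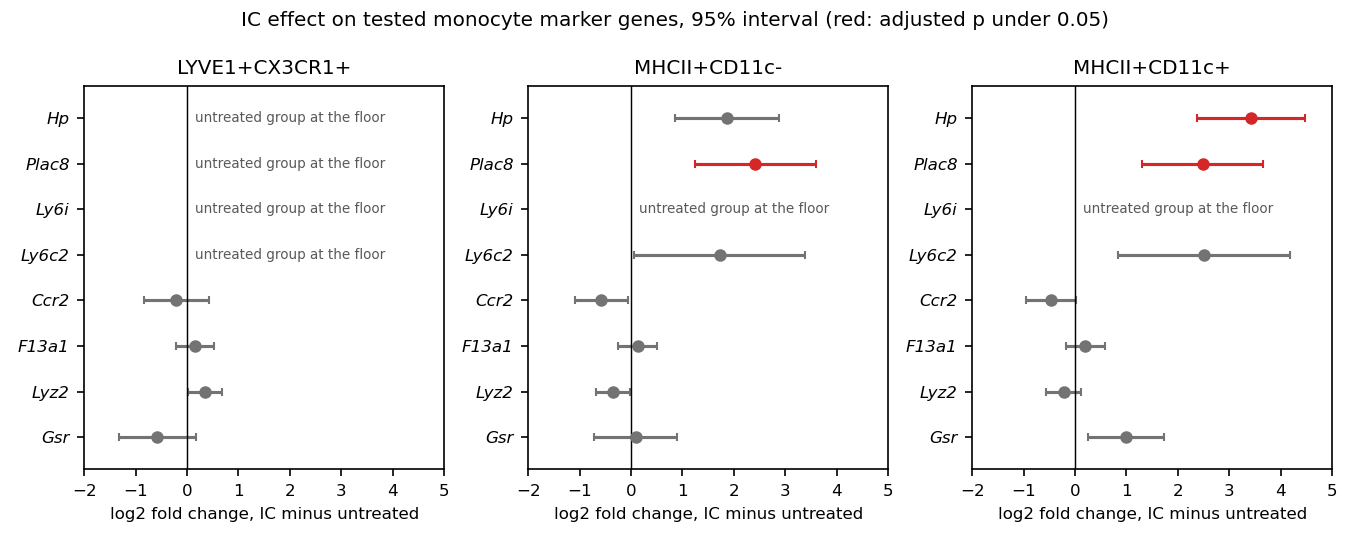
Log2 fold change (IC minus untreated, x axis) with its 95% interval for the 8 tested monocyte marker genes in each subset, red where the adjusted p was under 0.05 and grey otherwise, with no value drawn where the untreated group was at the floor of 3 counts per library. *Plac8* was at 2.42 and 2.48 in MHCII+CD11c- and MHCII+CD11c+ macrophages, and *Ccr2* was below 0 in all 3 subsets, at -0.21, -0.58 and -0.47 from left to right, without passing the test.

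*Ccr2* was at 364, 604 and 206 CPM in MHCII+CD11c- libraries after IC, against 598, 568 and 525 without treatment, and replicate 2 after IC exceeded every untreated library. The log2 fold change was -0.58 (SE 0.25, adjusted p = 0.275). The call depended on the fit. Without IC replicate 2, the smallest library of the series, the value was -1.03 (adjusted p = 0.0138). With 1 surrogate variable and all libraries kept it was -0.82 (adjusted p = 0.0397). Without both of the smallest libraries, which left 1 IC library in this subset, it was -1.44. In MHCII+CD11c+ macrophages, the IC libraries were at 660.1, 551 and 466 CPM, all below the untreated 775, 774 and 766, with a log2 fold change of -0.47 (95% interval -0.96 to 0.02, adjusted p = 0.551). In LYVE1+CX3CR1+ macrophages, *Ccr2* was at 15.2, 32.5 and 23.9 CPM after IC and overlapped with the untreated libraries (-0.21, 95% interval -0.85 to 0.42, adjusted p = 0.937).

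The ligands of CCR2 are made by macrophages among other cells. Of 9 tested genes for monocyte-attracting and growth ligands, 0 were higher after IC in each subset and 1 was lower in MHCII+CD11c- macrophages (*Cxcl12*, -3.17, SE 0.77, adjusted p = 0.0403). *Ccl2* was at 279.7 ± 106 CPM (SD, n = 3) in untreated and 165 ± 69.6 in IC MHCII+CD11c- macrophages, at 162 ± 25.2 and 199.6 ± 30.6 in MHCII+CD11c+ and at 112 ± 26.6 and 70.6 ± 18.4 in LYVE1+CX3CR1+ macrophages, without passing the test.

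*Hp* was called in MHCII+CD11c+ macrophages and fell just outside the threshold in MHCII+CD11c- ones. In MHCII+CD11c+ libraries it was at 56.8, 91.6 and 116 CPM after IC against 14.1, 1.31 and 8.64 without treatment, which gave 3.42 on the log2 scale (SE 0.51, adjusted p = 9.97e-04) and held whichever library was left out (adjusted p at most 0.0169). In MHCII+CD11c- libraries it was at 96.3, 56.3 and 141 CPM against 44.0, 18.2 and 22.4, also without overlap, and the difference was 1.86 on the log2 scale (SE 0.49, adjusted p = 0.0628). Without IC replicate 2 that value was 2.09 (adjusted p = 0.0266), and DESeq2's Wald test gave 1.83 (adjusted p = 0.0428). In LYVE1+CX3CR1+ libraries, *Hp* had 0, 4 and 7 counts after IC and 0 in each untreated library (adjusted p = 0.406).

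*Plac8* was at 93.7, 315 and 90.7 CPM in MHCII+CD11c- libraries after IC against 60.2, 3.65 and 24.4 without treatment, and at 70.6, 72.8 and 71.5 CPM in MHCII+CD11c+ libraries against 13.1, 11.1 and 13.9. The groups did not overlap in either subset, and the MHCII+CD11c+ libraries of each treatment lay close together. The log2 fold change was 2.42 (SE 0.57, adjusted p = 0.0354) and 2.48 (SE 0.57, adjusted p = 0.0380). Both calls depended on single libraries and on the fit. In MHCII+CD11c- macrophages it was lost without IC replicate 2 (1.63, adjusted p = 0.154), untreated replicate 2 (1.90, adjusted p = 0.118) or untreated replicate 3 (2.28, adjusted p = 0.111), without both of the smallest libraries (1.63, adjusted p = 0.306), with only the libraries compared (2.45, adjusted p = 0.172), with 1 surrogate variable (1.91, adjusted p = 0.0509) and with DESeq2 (2.52, adjusted p = 0.118). In MHCII+CD11c+ macrophages it was lost in each of the 6 fits that left out one of their libraries, with adjusted p from 0.0808 to 0.192 and log2 fold changes from 2.40 to 2.55, and with DESeq2 (2.50, adjusted p = 0.201). In LYVE1+CX3CR1+ libraries, *Plac8* had 11, 0 and 11 counts after IC against 0, 0 and 2 (adjusted p = 0.497).

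The Ly6 genes rested on few counts. *Ly6i* was at 26.0, 18.8 and 20.9 CPM (10, 5 and 21 counts) in MHCII+CD11c- libraries after IC, against 1, 0 and 0 counts without treatment, and was at least 6.46-fold higher (adjusted p = 0.0121). In MHCII+CD11c+ libraries it was at 16.9, 8.61 and 11.5 CPM (11, 11 and 19 counts) against 3, 1 and 0 counts, at least 7.45-fold higher (adjusted p = 0.0442). The groups did not overlap in either. The first call was lost without untreated replicate 2 (adjusted p = 0.0665), untreated replicate 3 (0.0669) or both of the smallest libraries (0.0894), and the second in each of the 6 fits that left out one of its libraries (0.0634 to 0.230) and without both of the smallest (0.0597). Each LYVE1+CX3CR1+ IC library had 1 count, and no fold is given.

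*Ly6c2* was at 23.4, 22.5 and 25.9 CPM (9, 6 and 26 counts) in MHCII+CD11c- libraries after IC against 12.7, 6.08 and 3.05 without treatment, and at 15.4, 13.3 and 15.2 CPM (10, 17 and 25 counts) in MHCII+CD11c+ libraries against 4.71, 0.654 and 1.92. The IC libraries lay above the untreated ones in both subsets. Neither log2 fold change passed the test, at 1.73 (SE 0.81, adjusted p = 0.317) and 2.51 (SE 0.81, adjusted p = 0.207). In LYVE1+CX3CR1+ macrophages, 1 of 3 IC libraries had *Ly6c2* counts (5 in replicate 3).

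Of the other genes of the Ly6 cluster, 4 were tested and 1 was higher after IC in MHCII+CD11c- macrophages, *Ly6a*, which encodes the stem cell antigen Sca-1 and is raised by interferon. *Ly6a* went from 1.99 ± 1.85 to 29.5 ± 8.55 CPM (SD, n = 3, adjusted p = 0.0120). *Ly6c1*, which shares sequence with *Ly6c2*, was at 2.33 ± 1.31 and 5.87 ± 8.02 CPM in the same groups and did not pass the test (adjusted p = 0.876).

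Neither of the abundant members *F13a1* and *Lyz2* passed the test in any subset in the fit of all libraries. *F13a1* was at 2943, 2019 and 2319 CPM in MHCII+CD11c-, 1913, 2458 and 1628 in MHCII+CD11c+ and 3485, 3163 and 2872 in LYVE1+CX3CR1+ libraries after IC, and overlapped with the untreated libraries in each subset. Its log2 fold changes were 0.13 (95% interval -0.25 to 0.50), 0.20 (-0.18 to 0.57) and 0.15 (-0.22 to 0.53), with adjusted p of 0.803, 0.839 and 0.910 in edgeR's test.

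*Lyz2* was at 8247, 7726 and 7749 CPM in LYVE1+CX3CR1+ libraries after IC, all above the untreated 6486, 6073 and 6125, with a log2 fold change of 0.34 (95% interval 0.01 to 0.68, adjusted p = 0.544). It was called higher there with only the libraries compared (0.35, adjusted p = 0.0355) and without both of the smallest libraries (0.36, adjusted p = 0.0485). It was at 5698, 3272 and 6009 CPM in MHCII+CD11c- and at 6189, 5998 and 5323 in MHCII+CD11c+ libraries after IC, below each of their untreated libraries, with log2 fold changes of -0.35 (-0.69 to -0.02, adjusted p = 0.314) and -0.22 (-0.56 to 0.11, adjusted p = 0.762). The IC response of *Lyz2* in LYVE1+CX3CR1+ minus that in MHCII+CD11c- macrophages was 0.70 (SE 0.23, unadjusted p = 0.00576, adjusted p = 0.621 in edgeR's test). *Lyz1*, the neighbouring lysozyme gene, was lower after IC in MHCII+CD11c- macrophages, from 849 ± 239 to 329 ± 49.3 CPM (log2 fold change -1.35, SE 0.23, adjusted p = 0.00220).

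*Gsr* was at 39.9, 41.5 and 89.1 CPM in MHCII+CD11c+ libraries after IC against 38.2, 19.0 and 29.7, without overlap, and its log2 fold change of 0.998 (SE 0.36, adjusted p = 0.282) did not pass the test. In MHCII+CD11c- macrophages it was at 44.2, 45.0 and 71.8 CPM after IC (0.09, 95% interval -0.72 to 0.89), and in LYVE1+CX3CR1+ macrophages at 25.3, 26.8 and 31.1 CPM (-0.58, -1.32 to 0.16). Of 15 tested genes of glutathione and NADPH metabolism, 1 was higher in MHCII+CD11c+ macrophages, *Hmox1* (heme oxygenase 1, which degrades heme; 0.70, SE 0.17, adjusted p = 0.0467), and 0 in the other subsets.

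*Fcnb* was barely detected. It had 0 counts in each of the 6 LYVE1+CX3CR1+ libraries, at most 1 in each untreated MHCII+ library, 2, 0 and 7 in MHCII+CD11c- and 0, 2 and 1 in MHCII+CD11c+ libraries after IC. No difference was detectable at this depth. Of 11 tested genes that work with the secreted members (complement, clotting, hemoglobin and acute phase genes), 1 was higher after IC in MHCII+CD11c+ macrophages. It was *Saa3*, an acute phase protein that macrophages make, with 0 counts in the untreated libraries and 30.1 ± 9.86 CPM after IC (adjusted p = 0.00427). In MHCII+CD11c- macrophages 1 was lower, *Lyz1*.

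Pooling the subsets gave more calls. The fit took libraries of different subsets as independent, and whether they shared mice is not known. Over the mean IC effect of the 3 subsets, 4 of 8 members were higher and 0 lower, where 6.21% of all genes tested were called and 3.12% as higher. They were *Ly6i* (adjusted p = 0.00248), *Ly6c2* (0.0253), *Plac8* (0.00153) and *Hp* (0.00110), whose fitted means are not given because the untreated LYVE1+CX3CR1+ libraries were at the floor. The *Ly6c2* call was lost without LYVE1+CX3CR1+ IC replicate 3 (adjusted p = 0.9999), the only library of that subset with its counts, or without LYVE1+CX3CR1+ untreated replicate 2 (0.0513) or 3 (0.0528). *Ccr2* averaged -0.42 (SE 0.16, adjusted p = 0.115), and -0.57 (adjusted p = 0.00457) without MHCII+CD11c- IC replicate 2. It was also called lower without a filter on low counts (-0.41, adjusted p = 0.0142) and with 1 surrogate variable (-0.50, adjusted p = 0.0132). Without both of the smallest libraries, which left 1 IC library in MHCII+CD11c- macrophages, the value was -0.70.

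The mean over the 2 MHCII+ subsets, a comparison added after the data had been seen, called the same 4 members, where 4.09% of all genes were called and 2.23% as higher. The log2 fold change was 2.64 for *Hp* (SE 0.35, adjusted p = 6.98e-05), 2.45 for *Plac8* (SE 0.41, adjusted p = 5.65e-04) and 2.12 for *Ly6c2* (SE 0.57, adjusted p = 0.0348), and *Ly6i* had an adjusted p of 3.23e-04. *Hp*, *Plac8* and *Ly6i* were called in each of the 12 fits that left out 1 MHCII+ library, and *Ly6c2* in 3 of 12 (adjusted p 0.0276 to 0.0858). It was lost without replicate 2 or 3 of either untreated subset, without IC replicate 1 or 3 of MHCII+CD11c-, without any of the IC replicates of MHCII+CD11c+, or without both of the smallest libraries (0.0760). *Ccr2* was at -0.52 (SE 0.17, adjusted p = 0.0935), and at -0.75 (adjusted p = 0.00169) without MHCII+CD11c- IC replicate 2. It was also called lower in 4 of 8 other fits of this mean, namely without a filter on low counts (adjusted p = 0.00411), with at least 10 counts in every library (0.0405), with 1 surrogate variable (0.00604) and without both of the smallest libraries (-0.95, adjusted p = 5.37e-04).

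The IC response itself was compared between subsets, pair by pair, in comparisons that share libraries. Of 8 members, 0 were called between LYVE1+CX3CR1+ and MHCII+CD11c- (0.0% of all genes tested), 0 between LYVE1+CX3CR1+ and MHCII+CD11c+ (0.00948%) and 0 between the MHCII+ subsets (0.00948%). DESeq2 called 0 in each, and 1, 2 and 1 members had an unadjusted p under 0.05. For *Hp*, the response in MHCII+CD11c+ exceeded that in MHCII+CD11c- macrophages by 1.56 (95% interval 0.12 to 3.01, adjusted p = 0.795 in edgeR's test). Outside the members, the 1 gene called between LYVE1+CX3CR1+ and MHCII+CD11c+ was *Vcan*, from the list of other monocyte genes described later. Its response was the lower one in LYVE1+CX3CR1+ macrophages. *Ly6i*, *Ly6c2*, *Plac8* and *Hp* were at the floor in untreated LYVE1+CX3CR1+ macrophages. The comparisons with that subset could therefore not decide whether their responses differed. A response of the members particular to one subset was not shown.

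Neutrophil markers were also called higher after IC in MHCII+CD11c+ macrophages, but not in either other subset taken singly. Of 12 tested, 4 were higher after IC in MHCII+CD11c+ macrophages (*Lcn2*, *S100a8*, *Csf3r* and *Mmp8*; median over the list 2.43), 0 in MHCII+CD11c- (median 0.98) and 0 in LYVE1+CX3CR1+ macrophages, where 9 of the 14 were at the floor without treatment, and 8 over the mean of the 3 subsets. Summed over 14 genes, they were at 1279, 1919.9 and 2827 CPM in MHCII+CD11c+ libraries after IC against 862, 130.2 and 324 without treatment, and at 2045, 1704 and 5138 in MHCII+CD11c- libraries against 2280.2, 977 and 1005. In untreated MHCII+CD11c- replicate 1, which had the highest sum of the untreated libraries, *Hp* (44.0 CPM), *Ly6c2* (12.7) and *Plac8* (60.2) were also at their highest untreated level. The same library had the highest sums of its group for 10 red cell and platelet markers (2836 CPM against 31.6 and 618) and 5 endothelial markers (89.1 against 18.2 and 13.2). Untreated LYVE1+CX3CR1+ replicate 2 had a red cell and platelet sum of 1148 CPM, with 0 counts of *Hp*, *Ly6c2* and *Plac8*. The part of such RNA was not tested. Of the 14 markers, *Elane*, an enzyme of immature neutrophil granules, had 0 counts in untreated MHCII+CD11c- and IC MHCII+CD11c+ libraries, and each other marker had counts in all 4 MHCII+ groups. The part of neutrophil RNA in the rise of *Hp*, *Plac8*, *Ly6c2* and *Ly6i* was not tested.

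Library by library, the members did not all follow these markers. After IC, MHCII+CD11c- replicate 2 had the lowest neutrophil sum of its group (1704 CPM) and the highest *Plac8* (315 CPM) beside its low macrophage identity sum, whereas *Hp* was at its lowest there (56.3 CPM). LYVE1+CX3CR1+ replicate 2 had the highest neutrophil sum of its subset (202 CPM), with 0 counts of *Ly6c2* and *Plac8* and 4 of *Hp*. *Ly6i* had 1 count in untreated MHCII+CD11c- replicate 1 at a neutrophil sum of 2280.2 CPM and 11 counts in IC MHCII+CD11c+ replicate 1 at a sum of 1279 CPM. Mast cell markers, 3 genes, summed to 67.8 to 176 CPM after IC in MHCII+CD11c- libraries against 0 to 96.6, with 0 of 3 called, and the 4 B cell markers were not called either.

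**Figure D3:**
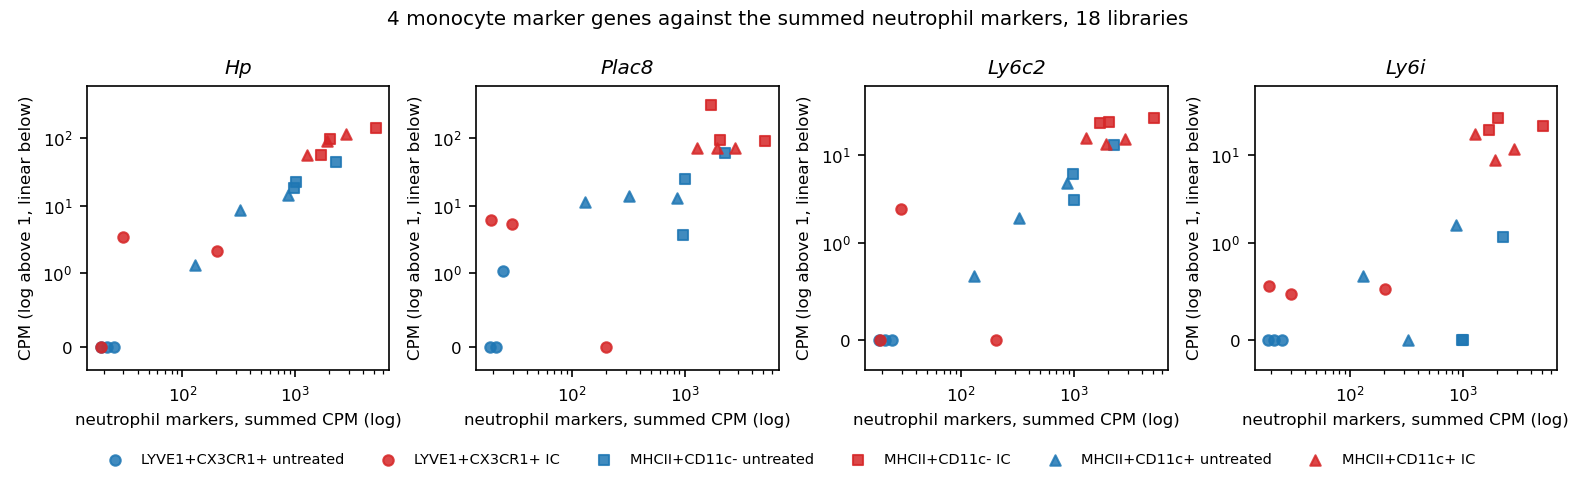
CPM of *Hp*, *Plac8*, *Ly6c2* and *Ly6i* (y axis, logarithmic above 1 and linear below) against the summed CPM of 14 neutrophil markers (x axis, logarithmic) in the 18 libraries, with the subset as symbol and the treatment as colour. *Hp* ran with the sum across the subsets, while *Ly6i* was at 8.61 to 26.0 CPM in the 6 IC libraries of the MHCII+ subsets and at 1.57 or less in their untreated libraries, which reached neutrophil sums of 2280.2 CPM.

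Genes that ran most like a member over the 18 libraries were listed by Pearson's r of log2 CPM, as a description. The 18 points share 3 subsets and their sorting gates, so that a gene used to sort can rank high. For *Ccr2* they were the class II genes *H2-Ab1* (r = 0.983), *H2-Aa* (0.980), *H2-DMb1* (0.980), *H2-Eb1* (0.976) and *H2-DMb2* (0.976), MHCII being the protein of the gate. For *Hp* they were *Ly6c2* (0.969) and the neutrophil genes *Lcn2* (0.967), *Cd177* (0.967), *S100a8* (0.965) and *S100a9* (0.964). For *Plac8* they were *Mcemp1* (0.931), *Sp100* (0.917), *Gngt2* (0.910), *Ly6c2* (0.910) and *Ms4a4c* (0.909).

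*F13a1* ran with *Nrp1* (0.901), *Lgmn* (0.900), *Cbr2* (0.897), *Rab3il1* (0.890) and *Slco2b1* (0.887), of which *Lgmn* encodes a lysosomal protease. *Lyz2* ran with *Sec31a* (0.900), *Galnt10* (0.897), *Slc25a39* (0.897), *Lima1* (0.895) and *Arl6ip4* (0.893). The highest r for *Gsr* was lower, at 0.845 (*Pmm1*), followed by *Crispld2* (0.795), *Mgam* (0.743), *Snx19* (0.729) and *Itgb2l* (0.727).

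A list of 24 other monocyte genes, of which 23 were tested, was described in the same way. After IC, 2 were higher in MHCII+CD11c- (*Ms4a4c* and *Clec4e*; median 0.60 over the list), 3 in MHCII+CD11c+ (*Vcan*, *Treml4* and *Clec4e*; median 0.65) and 0 in LYVE1+CX3CR1+ macrophages, and 0 were lower in each. Over the mean of the 3 subsets 6 were higher and 1 lower (*Cd44*), and over that of the MHCII+ subsets 9 were higher and 0 lower. *Clec4e* (Mincle, a lectin that senses microbes and dead cells) went from 27.2 ± 9.44 to 71.7 ± 27.0 CPM (SD, n = 3) in MHCII+CD11c- (log2 fold change 1.42, SE 0.34, adjusted p = 0.0365) and from 19.6 ± 3.87 to 78.0 ± 16.0 in MHCII+CD11c+ macrophages (2.00, SE 0.31, adjusted p = 0.00116). It is also raised in macrophages by activation.

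*Ms4a4c*, a membrane protein gene of monocytes, went from 9.67 ± 1.54 to 80.7 ± 44.1 CPM in MHCII+CD11c- macrophages (2.98, SE 0.47, adjusted p = 0.00122). *Vcan*, the proteoglycan versican, went from 11.9 ± 0.994 to 49.7 ± 9.56 CPM in MHCII+CD11c+ macrophages (2.08, SE 0.27, adjusted p = 1.28e-04), where its level stayed below that in untreated LYVE1+CX3CR1+ macrophages (515 ± 57.5 CPM). *Treml4*, a gene of non-classical monocytes, went from 3.02 ± 3.27 to 29.2 ± 9.35 CPM in the same subset (3.24, SE 0.76, adjusted p = 0.0447).

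**Figure D4:**
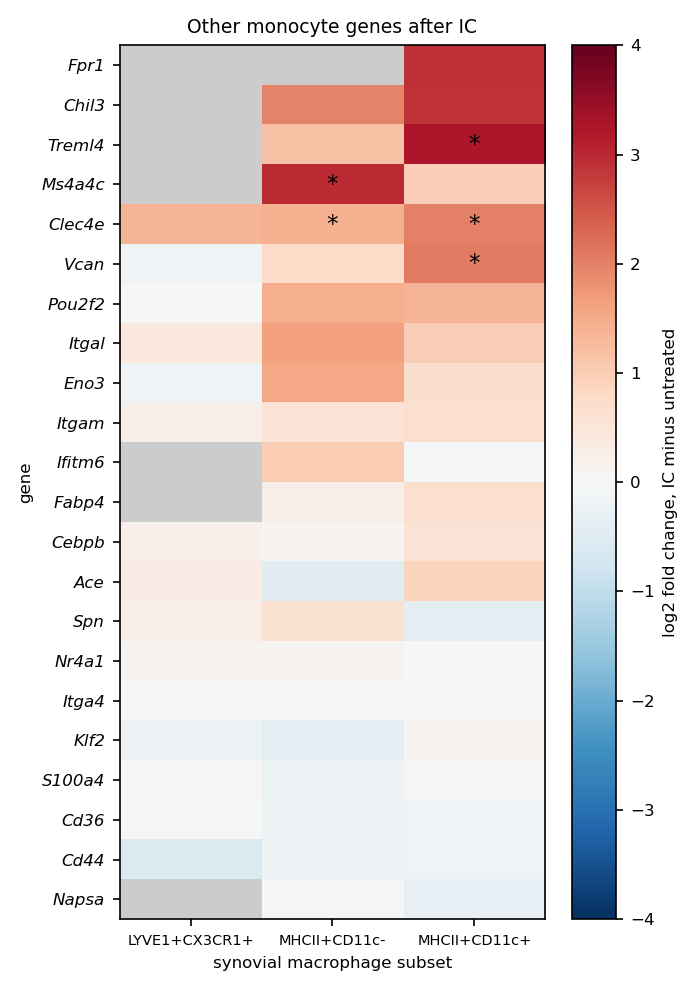
Log2 fold change (IC minus untreated, colour) of 22 tested genes of the list of other monocyte genes (rows) in the 3 subsets (columns), with an asterisk at an adjusted p under 0.05 and grey where one group was at the floor of 3 counts per library. The 5 asterisks are *Ms4a4c* and *Clec4e* in MHCII+CD11c- and *Vcan*, *Treml4* and *Clec4e* in MHCII+CD11c+ macrophages, all higher after IC.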

How the data were processed

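The authors deposited raw read counts per gene symbol for each library, which are whole numbers without normalisation. Per the methods and the submitters' processing notes, total RNA libraries made with a SMARTer stranded pico input kit were trimmed with Trim Galore, checked with FastQC, aligned to mm10 with HISAT2 and counted with featureCounts of Rsubread. Versions, annotation, strand setting and treatment of duplicate reads are not given in the sources used here. A table of the whole series repeats these counts and was not used.

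All 18 libraries entered one edgeR 4.0.16 quasi-likelihood fit (R 4.3.3) with a term per group, TMM scaling and filterByExpr (minimum count 10, minimum total 15), which kept 10550 genes and 8 of the 9 members. Contrasts gave log2 fold changes with SE, and p-values were adjusted by Benjamini-Hochberg over all genes tested. Levels are CPM with n = 3 libraries a group. No pair of libraries agreed within sampling noise (smallest chi-square per gene between replicates 3.42). Groups with 3 counts or fewer in each library were taken as at the floor, and floors and intervals from them cover counting error only, since the reads carry no molecular identifiers and several may come from 1 molecule.

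Named were the 9 members, genes of the other lists that passed the threshold in a described comparison, otherwise the most abundant or a gene singled out after its values were seen (*Ccl2* and *Ly6c1*), and the 5 genes with the highest Pearson correlation to each member with 10 or more counts in at least 9 libraries. Some genes of the lists and of the search for shared sequence are not reported here. The members and all lists were chosen with earlier results of these data known. The mean over the 2 MHCII+ subsets was added after counts of several members in LYVE1+CX3CR1+ macrophages were seen to be 0. Alternatives were DESeq2 1.42.0 (the study's tool) and its size factors, other filters, only the libraries compared, replicate blocks, 1 surrogate variable (sva 3.50.0) and leaving out libraries. On simulated counts for IC against untreated MHCII+CD11c- macrophages (10550 genes), edgeR recovered 17 of 100 genes changed 2-fold and 62 of 100 changed 4-fold, and called 0 in a comparison without change.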

Additional observations from a re-analysis of the deposited data

How the results depend on the processing

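Counts of members called were within 1.5 times the reported count in 169 of 195 recalculations, which include those where both counts were 0. With at least 10 counts required in every library, which left 3798 genes and few members to test, the counts were 1 and 2 for untreated LYVE1+CX3CR1+ against MHCII+CD11c- and MHCII+CD11c+, 0 and 0 for IC in MHCII+CD11c- and MHCII+CD11c+, 0 for the mean over 3 subsets and 1 for that over the MHCII+ subsets (*Ccr2*, lower). With only the libraries compared they were 2 and 3 for the untreated LYVE1+CX3CR1+ comparisons and 1 each for IC in LYVE1+CX3CR1+ (*Lyz2*, higher) and MHCII+CD11c- macrophages, and the cause was not tested. That fit was not run for the mean over 3 subsets. Without the 2 smallest libraries, 1 member was called for IC in LYVE1+CX3CR1+ macrophages (*Lyz2*). That fit left 1 IC library in MHCII+CD11c- macrophages, so calls there are not counted. The log2 fold change was 1.63 for *Plac8* and -1.44 for *Ccr2* in that subset. Without a filter on low counts, 2 were called for IC in LYVE1+CX3CR1+ and 2 between the untreated MHCII+ subsets, where DESeq2, 1 surrogate variable and a block within treatment each called 1.

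Leaving out 1 library gave 0 to 3 members for IC in MHCII+CD11c- (2 with all libraries). For MHCII+CD11c+ it gave 1 in each fit (3 with all libraries), and 0 to 1 between the untreated MHCII+ subsets. Directions turned for members that did not pass the test. *Lyz2* in untreated LYVE1+CX3CR1+ against MHCII+CD11c- macrophages was 0.0097 without a filter (-0.060 to 0.012 with 1 library left out), and its mean over 3 subsets was 0.026 without the 2 smallest libraries (-0.14 to 7.4e-05). With 1 library left out, *Ccr2* for IC in LYVE1+CX3CR1+ ran from -0.49 to 0.032, *F13a1* in MHCII+CD11c- from -0.039 to 0.26, *Gsr* in MHCII+CD11c- from -0.27 to 0.36 and the mean of *Gsr* over 3 subsets from -0.0083 to 0.26.

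Over all genes, the count for IC in LYVE1+CX3CR1+ macrophages was 49, and 155 with DESeq2, 160 without a filter and 272 with only the libraries compared. In MHCII+CD11c- it was 112, against 270, 337 and 19, and in MHCII+CD11c+ 71, against 147, 250 and 170. Whether replicate numbers mark the same mice was not settled. Of 18 pairs with the same number and treatment, 1 had a correlation of deviations over 0.1 (-0.046 to 0.132, median 0.036). For the 36 pairs with the same treatment and different numbers, the median was -0.025. With the replicate block, 2 members were called for IC in MHCII+CD11c-, 3 in MHCII+CD11c+ and 4 over the mean of 3 subsets, as without it. Depth limits the Ly6 genes and *Fcnb* most, since 3 counts were 11.3 CPM in the smallest library.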

Other observations

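Genes outside the monocyte lists also differed after IC. *Fcgr1*, the high-affinity receptor for IgG and 1 of 10 genes on the list of macrophage identity, was the only one of that list called in each subset. Its log2 fold change was 0.99, 1.18 and 1.25 in LYVE1+CX3CR1+, MHCII+CD11c- and MHCII+CD11c+ macrophages, with adjusted p of 0.0215, 0.00676 and 0.00335 in edgeR's quasi-likelihood test. Of 21 tested interferon-stimulated genes, 3 were higher in MHCII+CD11c- (*Rsad2*, *Mx1* and *Irf7*), 4 in MHCII+CD11c+ (*Ifi204*, *Rsad2*, *Oas1a* and *Irf7*) and 0 in LYVE1+CX3CR1+ macrophages, and 0 were lower. *Irf7*, which encodes a transcription factor of the interferon response, went from 62.1 to 159 CPM in MHCII+CD11c- (adjusted p = 0.0352) and from 54.7 to 147 in MHCII+CD11c+ macrophages (adjusted p = 0.0170) as group means.

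Of 8 markers of resident macrophages, 3 were higher after IC in MHCII+CD11c+ macrophages and 0 in each other subset. *Lyve1* went from 376 to 1090.3 CPM as group means (adjusted p = 0.00870), *Cx3cr1* from 65.8 to 117 (adjusted p = 0.0467) and *Vsig4* from 49.5 to 111 (adjusted p = 0.0145). *Lyve1* and *Cx3cr1* encode proteins used to sort another subset. Of the tested markers of fibroblasts (5), endothelium (3), dendritic cells (3) and red cells (5), 0 were called after IC in each subset, and over the mean of the 3 subsets the 5 red cell genes were lower and 1 fibroblast marker, *Pdpn*, was higher.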
